A study of Homo sapiens with 6 samples.

Results

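The 10 genes described here encode secreted inflammatory signals of liver cancer cells: the CXC chemokines CXCL8, CXCL1, CXCL2, CXCL3 and CXCL5, the CC chemokines CCL2 and CCL20, and the cytokines CSF1, IL32 and LIF. They are 10 of the 58676 genes of the deposited table, taken by symbol from GENCODE release 29, and all 10 were found. The RNA came from a human hepatocellular carcinoma (HCC) cell line that the labels do not name, grown in DMEM with fetal bovine serum. Control libraries carry the titles 238-1, 238-2 and 238-3, and knockdown libraries the titles sponge-1, sponge-2 and sponge-3. The series title calls the cells miR-19a treated, whereas the design text and the genotype label call them a knockdown. A sponge is an RNA with repeated binding sites that keep a microRNA from its targets. The sponge's promoter, the control construct and whether the cells are 1 clone are not stated. Control replicates 1, 2 and 3 were compared with knockdown replicates 1 and 3. Knockdown replicate 2 was left out because its values do not follow the gene IDs of the table: its rank correlation with the other libraries was 0.017 to 0.019, against 0.822 to 0.887 among the other 5.

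Chemokines are small secreted proteins that set up gradients which leukocytes follow through G protein-coupled receptors. CXCL8, CXCL1, CXCL2, CXCL3 and CXCL5 attract neutrophils through CXCR2, CCL2 attracts monocytes through CCR2, and CCL20 attracts lymphocytes and dendritic cells through CCR6. CSF1 is the growth factor of macrophages, IL32 a cytokine that induces other inflammatory mediators, and LIF a cytokine of the IL-6 family. In many cell types several of these genes are transcribed by NF-kB, a family of dimeric transcription factors, and many of their mRNAs are short-lived because of AU-rich elements in the 3' UTR.

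The CXC genes stand in 1 cluster on chromosome 4, and their promoters share a motif that genes outside the cluster also carry. The RefSeq promoter table (GRCh38.p14) holds 8 entries for 7 of the 10 genes, each running from 250 bases before to 50 bases after a start, with no entry for CCL2, CSF1 or LIF. Below are the 70 bases from 110 to 41 bases before the start for the 5 CXC genes, for their cluster neighbour CXCL6, and for CCL20, each read on the gene's own strand. Capitals mark the 9-base NF-kB motif GGAATTTCC, and in CCL20 a match to the 10-base NF-kB consensus.
CXCL8: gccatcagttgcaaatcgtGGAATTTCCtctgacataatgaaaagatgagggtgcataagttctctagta
CXCL1: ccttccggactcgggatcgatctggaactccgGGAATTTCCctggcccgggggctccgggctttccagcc
CXCL2: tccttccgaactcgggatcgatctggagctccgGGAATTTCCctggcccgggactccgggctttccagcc
CXCL3: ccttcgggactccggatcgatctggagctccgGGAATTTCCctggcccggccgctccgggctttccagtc
CXCL5: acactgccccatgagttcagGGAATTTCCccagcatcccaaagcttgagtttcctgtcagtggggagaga
CXCL6: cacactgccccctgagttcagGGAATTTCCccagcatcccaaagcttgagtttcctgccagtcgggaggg
CCL20: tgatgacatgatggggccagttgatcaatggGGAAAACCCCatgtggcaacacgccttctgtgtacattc
The windows lie at chr4:73740459-73740528 (CXCL8, plus strand), chr4:73869283-73869352 (CXCL1, plus), chr4:74099236-74099305 (CXCL2, minus), chr4:74038730-74038799 (CXCL3, minus), chr4:73998718-73998787 (CXCL5, minus), chr4:73836568-73836637 (CXCL6, plus) and chr2:227813732-227813801 (CCL20, plus).

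Both strands of each 300-base promoter were searched. The motif GGAATTTCC was in the promoters of 5 of 5 CXC members, against 0.461% of all 35116 promoters. It began 91 bases before the start in CXCL8, 78 in CXCL1, 77 in CXCL2, 78 in CXCL3 and 90 in CXCL5. Among the genes of the other lists, CXCL6, CXCL10, CXCL11, TSLP, NFKB1, REL, NFKBIA, NFKBIB and NFKBIZ also held this 9-base motif. The 10-base consensus overlapped it in CXCL1, CXCL2, CXCL3 and CXCL5, and was found alone in CCL20, from 79 bases before the start, and at the upstream of 2 IL32 starts, from 99 bases before it. Of all promoters, 5.91% held the consensus. The AP-1 motif TGACTCA was in CXCL8 only, from 137 bases before the start, against 4.95% of all promoters. These promoters are not independent of each other: those of CXCL1 and CXCL3 were identical at 82.5% of aligned bases. A match describes the letters of the window and not the binding of a factor.

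**Figure D1:**
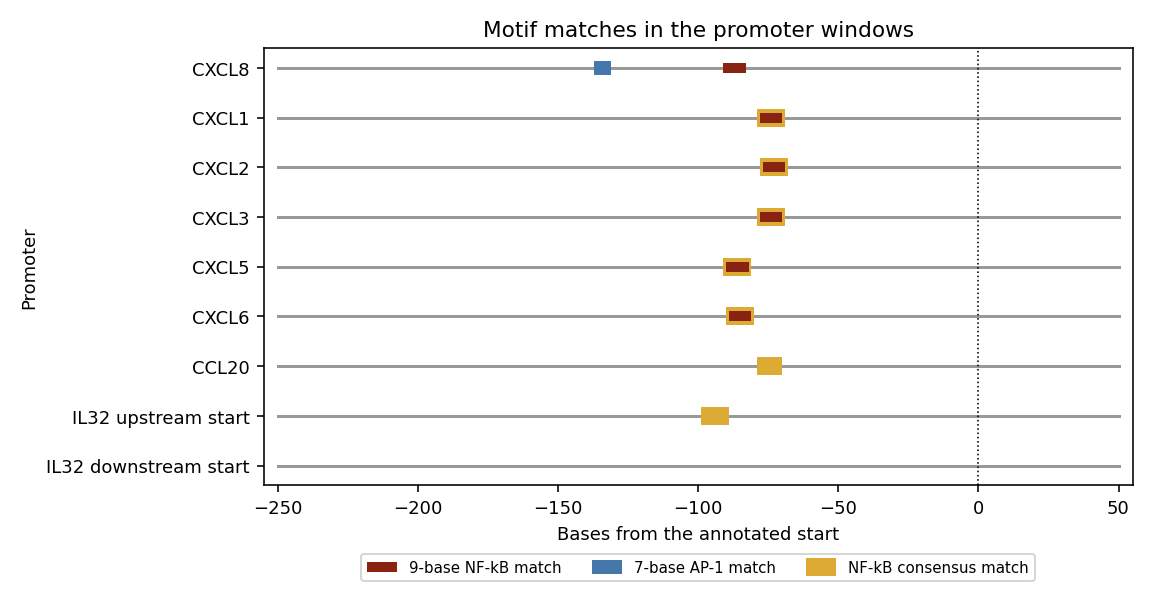
Motif matches along 300-base RefSeq promoters, with the distance from the annotated start in bases on the x axis and 1 line per promoter. The 9-base NF-kB match (dark red) sits 69 to 91 bases before the start in all 5 CXC members and in CXCL6, and the consensus match (yellow) lies in the same zone in CCL20.

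The deposited values are RPKM, reads per kilobase of exon, scaled to library size. The reads recovered from them sum to between 1948940, in control replicate 2, and 19605312 per library. Values were compared as log2(RPKM + 0.5) with limma over 15408 genes that reached 0.5 RPKM in 3 or more of the 5 libraries, and a log2 difference is knockdown minus control on that scale, which understates the change of low genes. With Benjamini-Hochberg adjustment in limma, 0 genes passed 0.05 in either direction, while 585 genes with knockdown higher and 392 with knockdown lower had an unadjusted p under 0.05. Voom on the recovered reads called 0 genes. Weighting its libraries gave 3 higher calls and 1 lower call, none of them a member. Replicates are not stated to be separate cultures, so a p-value covers only the spread among these libraries, which could be technical. As whole cultures were lysed, fewer cells expressing a gene and less RNA per cell cannot be told apart.

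Of the 10 genes, 9 were tested, CCL2 having no reads, and none passed the adjusted threshold, as for 0% of the 15408 genes that were called higher. All 9 had a log2 difference above 0, against 50.0% of all genes. The median of the 9 was 0.53, and that of all genes was 0.00. With a trend against exon length and GC content removed, the members' median was 0.35. In 7 of the 9, both knockdown libraries were above all 3 controls, against 14.3% of all genes. The genes CXCL2, CXCL3, CSF1 and IL32, 4 of the 9, had an unadjusted p under 0.05 with knockdown higher, against 3.80% of all genes. The shallowest library, control replicate 2, held the lowest value of 7 of the 9. Without it, 9 of 9 were still above 0, with a median of 0.48, against 6954 of the 15408 genes and a median of -0.04. Then 7 of 9 were separated (18.9% of all genes) and 4 of 9 had an unadjusted p under 0.05 in limma (4.86% of all genes).

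In RPKM, which is a level per length, the order of the control means ran from CCL20 (176 ± 28.5, SD, n = 3) through CXCL1 (96.4 ± 23.2), CXCL5 (93.8 ± 28.2), IL32 (57.8 ± 7.33) and CXCL8 (28.9 ± 6.29) to CXCL2 (6.31 ± 1.61), CSF1 (4.02 ± 0.44), CXCL3 (3.37 ± 0.92) and LIF (1.72 ± 0.40). The ranges of CXCL1 and CXCL5 overlapped, as did those of CXCL2 with CSF1 and of CSF1 with CXCL3. The length is the union of all annotated exons, which for CXCL3 is 2219 bases against 1075 bases in the coding transcript used here, so an order between close levels depends on the gene model. The 3 log2 differences above 1 belonged to IL32, which had a high level, and to CSF1 and CXCL3, which had low ones, while CCL20, CXCL1 and CXCL5, with the highest levels, had differences of 0.38, 0.36 and 0.33. Over all genes, 2.01% had a difference of 1 or more.

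**Figure D2:**
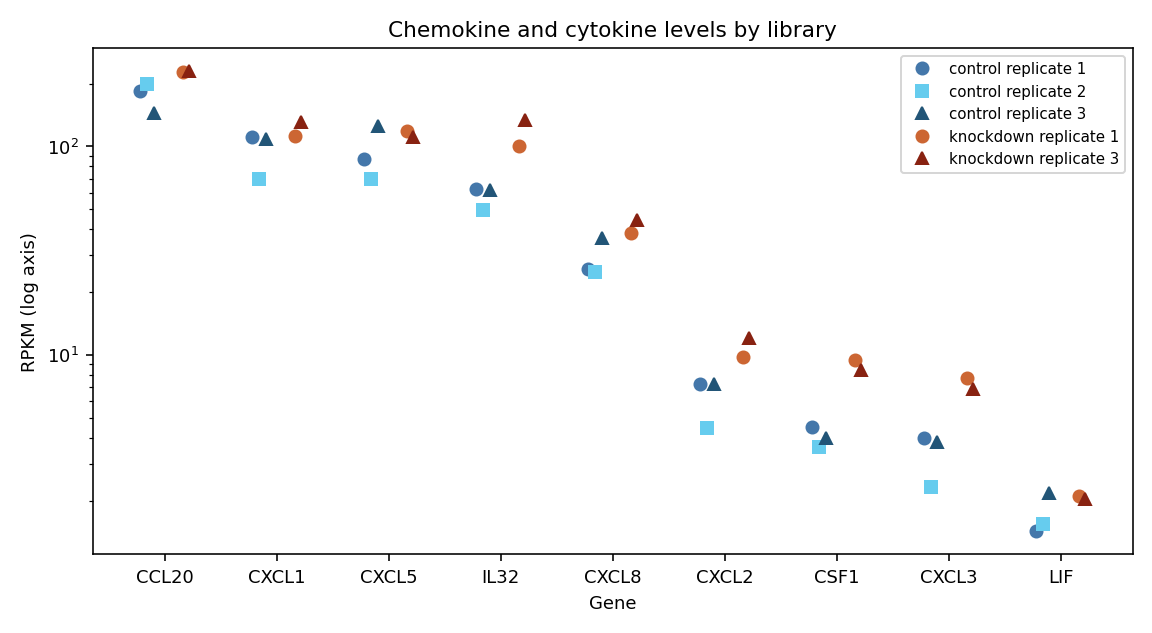
RPKM (log axis) of the 9 detected genes in each library, with controls in blue and knockdown in orange and red, and the shape giving the replicate number. Knockdown lies above all controls in 7 genes, most clearly in CSF1, IL32 and CXCL3, and overlaps the controls in CXCL5 and LIF.

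Among the neutrophil-attracting chemokines, CXCL8 (ENSG00000169429, chr4:73740506-73743716), known as interleukin-8, was at 25.8, 24.8 and 36.2 RPKM in control replicates 1, 2 and 3, and its knockdown replicates 1 and 3 read 38.6 and 44.5 RPKM. Both knockdown libraries were above the controls, though knockdown replicate 1 was close to control replicate 3. The log2 difference was 0.53 (SE 0.21), with an unadjusted p of 0.0523 and an adjusted p of 0.71 in limma. It was 0.32 with the length and GC trend removed.

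CXCL1 (ENSG00000163739, chr4:73869393-73871242), also called GRO-alpha, was at 111.2, 69.7 and 108.3 RPKM in the controls against 111.7 and 131 RPKM in the knockdown libraries. The groups touched, with 111.7 in knockdown replicate 1 beside 111.2 in control replicate 1, and control replicate 2 stood below the rest. The log2 difference of 0.36 (SE 0.26, limma adjusted p 0.743) was 0.14 without that library.

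CXCL2 (ENSG00000081041, chr4:74097035-74099293), the GRO-beta chemokine, was at 7.26, 4.45 and 7.21 RPKM in the controls against 9.75 and 12.0 RPKM in the knockdown libraries. The knockdown values were above all controls, and control replicate 2, with 13 reads, was again the lowest. Knockdown minus control was 0.77 on the log2 scale (SE 0.26, unadjusted p 0.0291, adjusted p 0.71 in limma), and 0.55 without control replicate 2.

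CXCL3 (ENSG00000163734, chr4:74036589-74038807), GRO-gamma, was at 3.98, 2.31 and 3.82 RPKM in the controls against 7.76 and 6.82 RPKM in the knockdown libraries, from 81, 10, 166, 160 and 230 reads in that order. The groups were well apart, the lowest knockdown value exceeding the highest control value by more than the spread of either group. This gave a log2 difference of 1.04 (SE 0.26, unadjusted p 0.00861, adjusted p 0.71 in limma). It was 0.82 without control replicate 2.

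CXCL1, CXCL2 and CXCL3 share so much sequence that reads may be split between them. Over their coding sequences of 324 bases, CXCL1 and CXCL2 were 93.5% identical, CXCL1 and CXCL3 90.8%, and CXCL2 and CXCL3 94.4%, against 53.7% to 62.4% for every pair with CXCL5 or CXCL8. How the submitters' counting treated reads that map to more than 1 of them is not stated, so the differences between the 3 genes are uncertain. Their RPKM values summed to 122.4, 76.4 and 119.3 in the controls and to 129.2 and 150.0 in the knockdown libraries, so the sum too was above all controls. CXCL1 makes up most of this sum.

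CXCL5 (ENSG00000163735, chr4:73995642-73998779), a chemokine that epithelial cells release, was at 87.3, 69.3 and 124.7 RPKM in the controls against 118.4 and 110.2 RPKM in the knockdown libraries. Control replicate 3 was the highest of the 5, and the groups overlapped. The log2 difference was 0.33 (SE 0.27, limma adjusted p 0.775). Leaving out control replicate 2 gave 0.13 and leaving out control replicate 3 gave 0.55, so its size rests on those 2 controls.

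The other genes of the chromosome 4 cluster gave the setting of these values. CXCL6, next to CXCL8, was at 3.29, 2.12 and 6.19 RPKM in the controls against 7.44 and 8.65 RPKM in the knockdown libraries (log2 difference 1.07, SE 0.41, limma adjusted p 0.71). PPBP, which encodes the platelet chemokine CXCL7, had 0 reads in all 5 libraries, and PF4, another platelet chemokine, had 0 to 7 reads. ALB and AFP, the albumin and alpha-fetoprotein genes on the CXCL8 side of the cluster, overlapped between the groups, with log2 differences of 0.06 and -0.12. EREG, the epiregulin gene beyond the other end of the cluster, also overlapped (0.17). Of the 16 coding genes from ALB to EREG, those tested were ALB, AFP, CXCL8, CXCL6, CXCL1, CXCL5, CXCL3, CXCL2 and EREG. Among the tested ones, CXCL8, CXCL6, CXCL1, CXCL3 and CXCL2 had both knockdown libraries above all controls. MTHFD2L, beyond CXCL2, was not tested and lay below all controls. It was at 0.35 to 0.61 RPKM in the controls against 0.31 and 0.34 in the knockdown libraries. Over all genes tested, 14.3% had both knockdown libraries above all controls.

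Of the CC chemokines, CCL20 (ENSG00000115009, chr2:227805739-227817564) had the highest level of all members, with 184.9, 199.3 and 144.3 RPKM in the controls against 226.0 and 229.3 RPKM in the knockdown libraries. The knockdown libraries were alike and above the controls, among which control replicate 3 was low. Its log2 difference was 0.38 (SE 0.20, limma adjusted p 0.712), and 0.25 without control replicate 3. CCL2 (ENSG00000108691, chr17:34255218-34257203), the main monocyte attractant, had 0 reads in each of the 5 libraries. A count of 0 allows up to 3 reads, which is 0.077 RPKM in the deepest library and 0.775 RPKM in the shallowest, for counting error only.

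Among the cytokines, CSF1 (ENSG00000184371, chr1:109910242-109930992) had the lowest p of the 9. Its level was 4.48, 3.60 and 3.97 RPKM in the controls against 9.49 and 8.44 RPKM in the knockdown libraries, a mean of 4.02 ± 0.44 (SD, n = 3) against 8.97 ± 0.74 (SD, n = 2). Each group was tight, and both knockdown values were above every control by far more than the spread within a group. The log2 difference was 1.07 (SE 0.17), with an unadjusted p of 0.00112, rank 12 of the 15408 genes, and an adjusted p of 0.71 in limma. With each library left out in turn it was 0.99 to 1.15.

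IL32 (ENSG00000008517, chr16:3065297-3082192) was at 62.7, 49.4 and 61.4 RPKM in the controls against 100.1 and 134.3 RPKM in the knockdown libraries. Both knockdown libraries were above the controls, and they differed from each other more than the controls did. Its log2 difference was 1.01 (SE 0.21, unadjusted p 0.00355, adjusted p 0.71 in limma) and 0.79 without knockdown replicate 3. The exons of IL32 share 129 bases with the small RNA pseudogene RNU1-125P on the same strand.

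LIF (ENSG00000128342, chr22:30240447-30246851) was the lowest detected member, with 1.43, 1.55 and 2.17 RPKM in the controls against 2.11 and 2.04 RPKM in the knockdown libraries. Control replicate 3 was above both knockdown libraries, so the groups overlapped. The log2 difference was 0.23 (SE 0.23, limma adjusted p 0.80), from 0.14 without control replicate 1 to 0.37 without control replicate 3, and 0.14 with the length and GC trend removed. LIF shares 175 exon bases with AC004264.1 and 92 with its antisense gene LIF-AS1, and the strand setting of the counting is not stated.

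**Figure D3:**
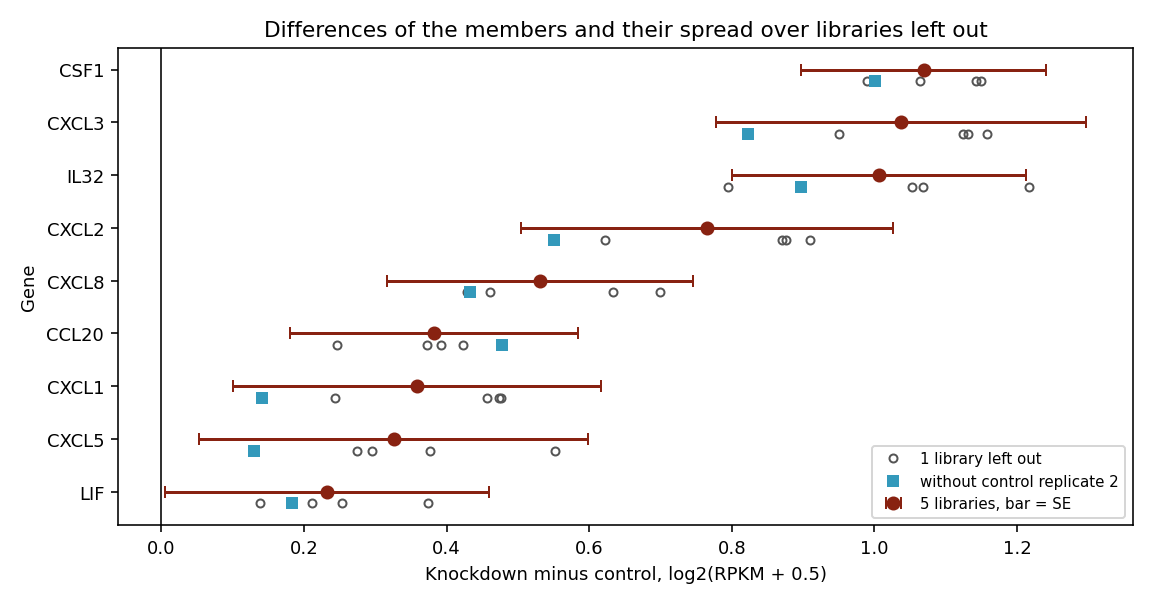
Log2 difference (knockdown minus control, log2(RPKM + 0.5)) of each tested gene with its SE (red), and the same with 1 library left out (open circles) or without control replicate 2 (blue squares). CSF1, CXCL3 and IL32 lie near 1, and no value crosses 0 when a library is left out, LIF, CXCL1 and CXCL5 coming closest.

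The members also varied among libraries of 1 group. Relative to each gene's mean over the 3 controls, in log2(RPKM + 0.5), the median over the 9 was 0.12, -0.22 and 0.20 in control replicates 1, 2 and 3 and 0.43 and 0.63 in knockdown replicates 1 and 3. Neither knockdown replicate was consistently the higher: CXCL3, CXCL5, CSF1 and LIF were higher in replicate 1 and the other 5 in replicate 3. By the distance between centred log2 profiles over the 5 libraries, the genes most like the members' mean profile were ZNF528-AS1 (0.090), ASS1 (0.095), ELF3 (0.098), PGK1 (0.103) and ARVCF (0.118). The members themselves lay 0.314 (CXCL8) to 0.673 (CCL20) from their own mean.

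Since the title names miR-19a, the members' 3' UTRs were searched for its site. The mature sequences of the miR-19 family (RefSeq, GRCh38.p14) are printed because their seed, bases 2 to 8 in capitals, is the same and defines the site TTTGCAC.
hsa-miR-19a-3p (chr13:91350939-91350961, plus strand): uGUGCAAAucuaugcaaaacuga
hsa-miR-19b-3p (chr13:91351245-91351267, plus strand): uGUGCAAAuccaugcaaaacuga
One of the 10 members had the site, LIF, from base 2042 of its 3204-base 3' UTR, shown with the site in capitals.
LIF: cttttcactcacTTTGCACctttccctgtc
Over all 19421 coding genes with a 3' UTR, 14.2% held the site, and 24.0% of genes with a 3' UTR of like length to that of LIF. The 9 others had none in the transcript used. The shorter 6-base match TTGCAC, which lies within the site, occurred 2 times in CSF1 and 1 time each in CXCL8, CXCL2 and CCL20. Of all coding genes, 30.1% had at least 1, a share that was not matched for 3' UTR length.

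AU-rich elements are bound by proteins that speed or slow mRNA decay, and the pentamer ATTTA is their core. The 3' UTR of CXCL5 held 11 copies, CXCL2 10, CXCL8 9, CXCL3 and LIF 7 each, CXCL1 5, CSF1 4, CCL20 3, CCL2 1 and IL32 0. Shares were taken over coding genes with a 3' UTR of like length (0.8 to 1.25 times), the member itself included. At least as many copies as CXCL2 were held by 0.0451% of 2215 genes, which is CXCL2 alone. The share was 0.917% for CXCL3, 2.05% for CXCL8, 44.6% for LIF and 50.4% for CSF1. In the order of copies, the log2 differences were 0.33 (CXCL5), 0.77 (CXCL2), 0.53 (CXCL8), 1.04 (CXCL3) and 0.23 (LIF). They were 0.36 for CXCL1, 1.07 for CSF1, 0.38 for CCL20 and 1.01 for IL32. Whether the copies bear on the differences was not tested. Of 10 genes for proteins that bind AU-rich RNA or act in mRNA decay, 5 had a difference above 0 (median -0.01). Over all genes, 50.0% were above 0. None of the 10 had an unadjusted p under 0.05 in limma. Without control replicate 2, 3 of 10 were above 0 (median -0.11), against 6954 of the 15408 genes (median -0.04). ZC3H12A, which encodes the ribonuclease Regnase-1, had the smallest p of them, with a log2 difference of 0.45 (SE 0.22, limma adjusted p 0.71).

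**Figure D4:**
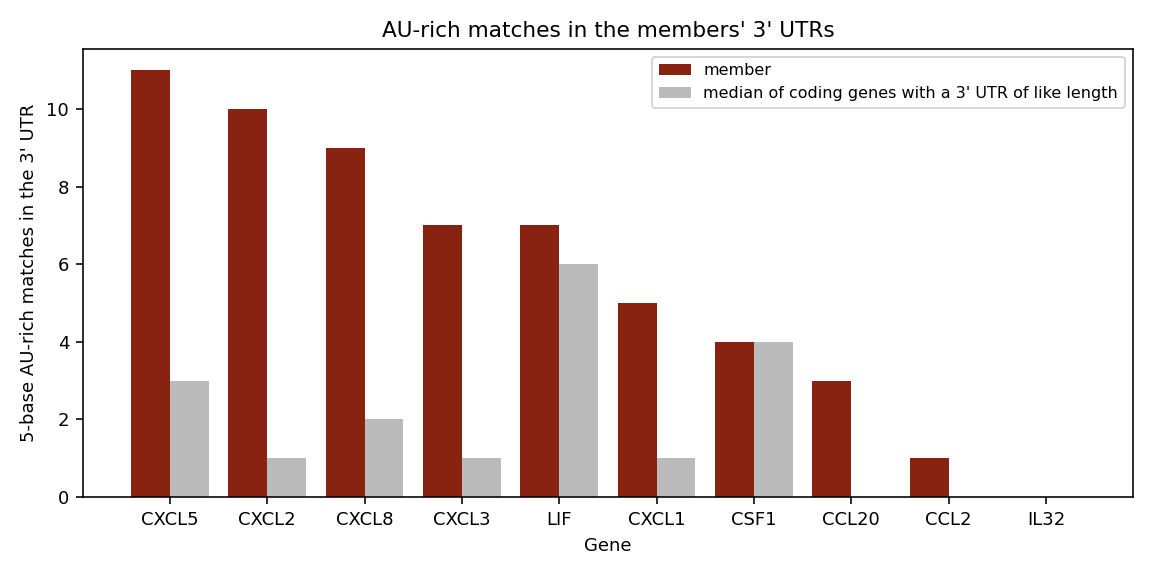
Copies of the 5-base AU-rich core in the 3' UTR of each of the 10 members (dark red) beside the median of coding genes with a 3' UTR of like length (grey). CXCL5, CXCL2, CXCL8, CXCL3 and CXCL1 exceed that median by 4 or more copies, and CSF1 equals it.

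Other secreted signals were read in the same way, from lists drawn up with earlier results of these data known. Of 36 other chemokines, 14 had no reads in any of the 5 libraries and 8 were tested. Of these 8, 7 were above 0 (median 0.66), against 50.0% of all genes. In 5 of the 8, both knockdown libraries were above all controls, against 14.3% of all genes. Of these 5, CXCL10 and CCL17 had 0 reads in control replicate 2. They passed the 0.5 RPKM filter only with the knockdown libraries, where they were higher. CX3CL1, the membrane-bound fractalkine, was at 33.8, 32.0 and 31.5 RPKM in the controls against 52.7 and 50.1 in the knockdown libraries (log2 difference 0.66, SE 0.13, limma adjusted p 0.71). CCL17, a ligand of CCR4, had 3, 0 and 7 reads in the controls and 9 and 20 in the knockdown libraries, too few to set a size. CXCL16, chosen after its values were seen as the exception, was at 40.8 to 45.2 RPKM in the controls against 40.7 and 40.8 RPKM in the knockdown libraries (log2 difference -0.07).

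Of 30 other cytokines, 10 were tested, 8 of them above 0 (median 0.55), against 50.0% of all genes. In 6 of the 10, knockdown was above all controls, against 14.3% of all genes. Of these 6, IL23A and EBI3 passed the 0.5 RPKM filter only with the knockdown libraries, where they were higher. IL23A was at 0.83, 0 and 0.34 RPKM in the controls against 1.27 and 1.05 in the knockdown libraries. Without control replicate 2 the median of the 10 was 0.32 (all genes -0.04), with 9 of 10 above 0. TGFB1, the transforming growth factor, had a log2 difference of 0.57, and TNFSF10, the death ligand TRAIL, of 0.96, each with a limma adjusted p of 0.71. EBI3, a subunit of IL-27, had 11, 0 and 18 reads in the controls and 18 and 38 in the knockdown libraries. TNF had 0 reads in all 5 libraries, and IL6 had 0 to 4 reads.

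The receptors of the members were mostly near 0 in these cells. CXCR1 and CXCR2 had 0 reads in the controls and at most 3 in a knockdown library, and CCR2, CCR6 and CSF1R, the receptors for CCL2, CCL20 and CSF1, were at 0.27 RPKM or lower in every library. The LIF receptor chain LIFR was at 4.09, 4.11 and 6.12 RPKM in the controls against 4.96 and 3.27 in the knockdown libraries. Its partner IL6ST, or gp130, was at 10.4, 11.8 and 16.3 and at 12.4 and 8.25 RPKM. Both overlapped between groups. Of the 11 receptors listed 3 were tested, and none of the 3 was above 0 (median -0.19), against 50.0% of all genes. In a list for the LIF receptor arm, which counts LIFR and IL6ST again, 5 of 9 tested genes were above 0 (median 0.06). The share over all genes was 50.0%. The list holds receptor chains as well as genes downstream of gp130. SOCS1, the cytokine signalling inhibitor, had a log2 difference of 0.84 from 4 to 86 reads a library. Without control replicate 2 the median of this list was 0.03 (all genes -0.04), and SOCS1 no longer had an unadjusted p under 0.05 in limma.

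All 21 NF-kB genes listed were tested, and 17 were above 0 (median 0.23), against 50.0% of all genes. In 12 of 21, both knockdown libraries were above all controls, against 14.3% of all genes, and in 2 of 21 below all controls, against 13.6% of all genes. An unadjusted p under 0.05 with knockdown higher was found for 7 of 21, against 3.80% of all genes. RELB, a subunit of the non-canonical pathway, was at 9.55, 6.76 and 8.45 RPKM in the controls against 17.1 and 20.7 in the knockdown libraries (log2 difference 1.15, SE 0.20). NFKB2, its partner, had a difference of 0.73 and NFKBIA, the inhibitor IkB-alpha, of 0.83, all with a limma adjusted p of 0.71. NFKB1 overlapped between groups (0.06). The receptors and adaptors of inflammatory signalling stood at a median of 0.01, with 6 of 11 tested above 0, against 50.0% of all genes. Among them, TRAF2, a TNF receptor adaptor, was at 0.53. Without control replicate 2 the median of these 11 was -0.15, with 3 of 11 above 0. Over all genes, 6954 of 15408 were then above 0, with a median of -0.04. Of 10 other transcription factors 9 were above 0 (median 0.30), against 50.0% of all genes, with CEBPD, an acute-phase factor, at 0.90. Without control replicate 2 that median was 0.15 (all genes -0.04).

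**Figure D5:**
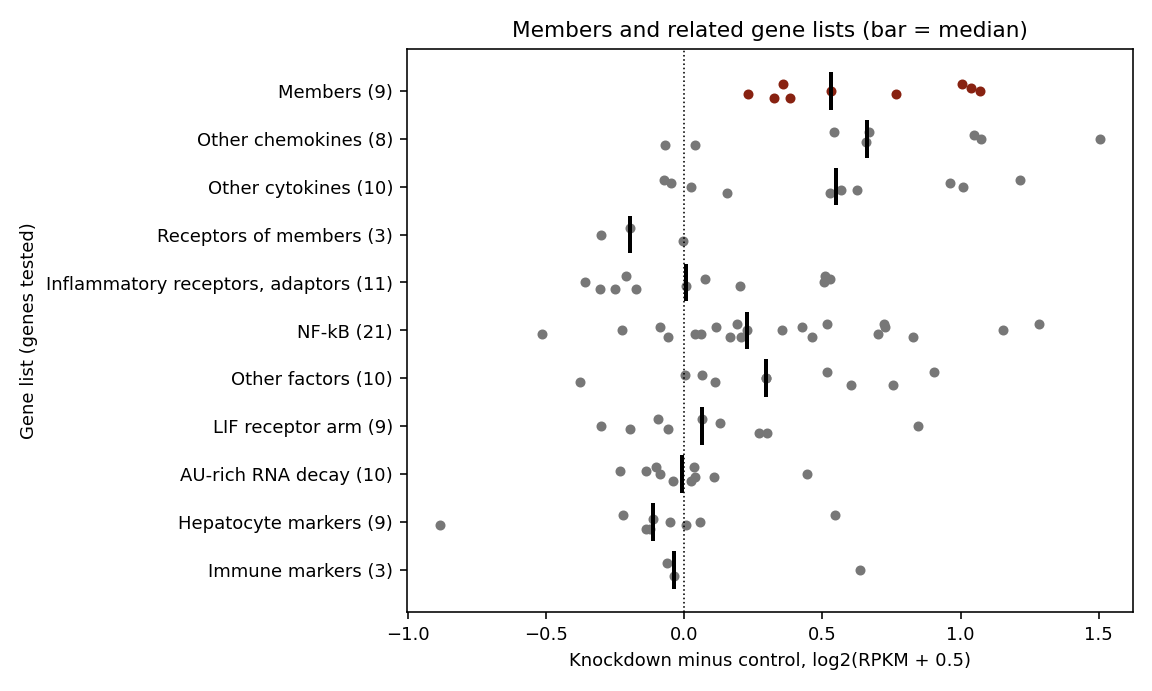
Log2 difference (knockdown minus control, log2(RPKM + 0.5)) of each tested gene by list, with the number tested in brackets and a bar at the median. The members and the other chemokines and cytokines have medians of 0.53 to 0.66, while their receptors, the decay genes and the hepatocyte and immune markers lie near or below 0.

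The labelled cell type was checked against markers. ALB was at 652 to 951 RPKM in the controls against 817 and 870 in the knockdown libraries, and AFP was present at 217 to 313 and 231 and 260 RPKM. Of 9 hepatocyte markers, 3 were above 0 (median -0.11), against 50.0% of all genes. SERPINA1, the gene of the acute-phase protein alpha-1-antitrypsin, had a difference of 0.54 and APOB, the lipoprotein gene, of -0.88. Of 12 immune markers 3 were tested, and the 12 summed to 45.0 to 51.4 RPKM in the controls against 46.5 and 52.7 in the knockdown libraries. Most of that sum was CD14, at 28.6 to 38.4 RPKM in the controls and 30.6 and 36.8 in the knockdown libraries, and LYZ, at 8.59 to 11.6 and at 9.39 and 9.36 RPKM, and both overlapped between groups. PTPRC, the pan-leukocyte gene, was at 0.071 RPKM or lower, and MS4A1 and HLA-DRA had 0 reads. CD3D was at 3.08 to 4.46 RPKM in the controls against 6.14 and 6.09 RPKM in the knockdown libraries, while CD3E, its partner in the T cell receptor complex, had at most 0.18 RPKM. The 8 fibroblast markers summed to 63.9 to 83.7 and to 68.4 and 72.5 RPKM, most of it LUM, with DCN at 0.010 RPKM or lower. Within this list, COL1A2 was at 8.79, 7.54 and 11.7 RPKM in the controls against 14.7 and 12.0 in the knockdown libraries (log2 difference 0.51), and COL1A1 was at 1.21, 0.73 and 1.99 and at 2.33 and 2.16 RPKM (0.66). COL1A2 and COL1A1 thus lay above all controls (14.3% of all genes), as 7 of the members did. COL3A1, also a collagen gene of this list, was too low to be tested and lay below all controls. It was at 0.144, 0.151 and 0.157 RPKM in the controls against 0.111 and 0.135 in the knockdown libraries. PDGFRA lay below all controls (13.6% of all genes), with a log2 difference of -0.56. It was at 0.79, 0.58 and 1.11 RPKM in the controls against 0.43 and 0.35 in the knockdown libraries. PDGFRA thus passed the 0.5 RPKM filter only through the controls, the group where it was higher. COL1A2, COL1A1 and PDGFRA each had a limma adjusted p of 0.71. The part of CD3D and these fibroblast markers in the members' differences was not tested. Endothelial markers summed to under 1 RPKM in each library.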

How the data were processed

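RNA of an HCC cell line was sequenced in 6 libraries, 3 control and 3 knockdown. The authors deposited 1 RPKM value per gene and library. HISAT2 and the build GRCh38 are named in the submitters' processing notes. No counter, annotation or filter is named there. Each of the 58676 gene IDs matched GENCODE release 29. RPKM times exon length gave whole reads (tolerance 0.002) for 100% of values above 0 in 5 libraries and for 0.311% in knockdown replicate 2, which was not used. No 2 of these 5 libraries held an identical nonzero value for a gene. As the library totals differ, equal values would be rare in any case, so this does not test for shared reads. Recovered reads were 9181567, 1948940 and 19605312 for control replicates 1, 2 and 3, and 9296308 and 15198231 for knockdown replicates 1 and 3.

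The members and lists were chosen with earlier results of these data known. The test was limma 3.58.1 in R 4.3.3 (lmFit, eBayes with trend, two-sided) on log2(RPKM + 0.5), for the 15408 genes that reached 0.5 RPKM in 3 or more libraries, with Benjamini-Hochberg adjustment over them and no covariate. The script was tested on simulated counts whose libraries differed, apart from random scatter, only in depth and in set changes. That does not test its calls on the libraries used here. Named are all members, up to 3 genes of smallest p per list, the members' receptors and the 5 genes of nearest profile. Genes of the chromosome 4 cluster, CXCL16, TNF, IL6, NFKB1 and single cell markers were named after their values were seen. Promoters and microRNAs are from RefSeq (GRCh38.p14) and 3' UTRs from GENCODE. Alternatives were other pseudocounts, filters, scalings, no trend, a replicate block, a length and GC correction, voom on recovered reads, and each library left out. Counts per list without control replicate 2 were an alternative chosen after seeing the data.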

Additional observations from a re-analysis of the deposited data

How the results depend on the processing

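No alternative reversed a member: all 9 stayed above 0, and all 153 member values from 17 alternatives kept their side of the threshold. The lowest adjusted p of a member was 0.0900, for CSF1 in voom with sample weights, and over all alternatives the values ran up to 1.00. The median difference of the members was 0.43 to 0.70 with each library left out, and 0.35 once a trend with exon length and GC content was removed (Spearman over genes with the difference -0.229 and 0.268). Genes called were 0 higher and 0 lower throughout, each library left out included (0 to 0), with 2 exceptions. In voom with sample weights, 3 genes were called higher and 1 lower. The replicate block called 33 higher and 7 lower, none of them a member (lowest adjusted p 0.219), with control replicate 2 alone in its block. The numbers were not taken as a pairing: deviations of same-numbered libraries correlated at -0.168 and 0.018. Without control replicate 2, CXCL1 moved from 0.36 to 0.14 and CXCL5 from 0.33 to 0.13, and with the trend removed CXCL8 moved from 0.53 to 0.32 and LIF from 0.23 to 0.14. Control replicate 2, with 1948940 reads, limits the low genes most: it holds 10 reads of CXCL3 and 12 of LIF.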
